A study of Mus musculus with 12 samples.

Results

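The genes described here are 7 antioxidant genes that the transcription factor NRF2 is known to switch on: Hmox1, Srxn1, Nqo1, Gclm, Gclc, Txnrd1 and Prdx1. They are a list of names drawn up with earlier results of these data known, were followed in all 12 libraries of the study, and are 7 of 55266 genes in the files. All 7 passed the filter on low counts, as did 19384 genes in all.

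NRF2, encoded by Nfe2l2, is held in the cytoplasm and sent for degradation by KEAP1, which senses oxidants and electrophiles through its cysteines. When KEAP1 is modified, NRF2 accumulates, pairs with a small MAF protein and binds antioxidant response elements in its target genes, while BACH1 competes for the same elements and represses Hmox1 in particular. The targets supply glutathione, recycle thioredoxin and peroxiredoxins, reduce quinones and break down heme.

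The series asked how hyperosmotic stress and the reactive oxygen species it raises bear on 2-cell-like cells, a rare state of mouse embryonic stem cells in which genes of the 2-cell embryo are active. The E14 line of such cells carried the 2C::3xtbGFP reporter, in which a fluorescent protein marks that state. The cells were plated without the 2 kinase inhibitors used for expansion. The 6 groups were tbGFP-positive and tbGFP-negative cells, each sorted by flow cytometry after 0, 6 or 24 h in sorbitol (a sugar alcohol used to make the medium hyperosmotic). Each group had 2 libraries of total RNA, all from reporter cells. The labels list no sorbitol-free group for the 6 h and 24 h collections, so sorbitol and time in culture cannot be told apart. The sort followed the treatment, so positive cells at 24 h need not descend from positive cells at 0 h. Nor do the labels state that a group's 2 libraries derive from separate cultures. The p-values then cover just the spread between these libraries, and that spread may be technical.

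Libraries held 2306870 to 7900178 counts, and 3 counts corresponded to 0.38 to 1.3 CPM (counts scaled to library size). The sort was visible in the 2-cell-like markers, whose summed level over 6 genes reached 22704 to 38996 CPM in the 6 positive libraries and 11.6 to 588 CPM in the 6 negative ones. Markers of pluripotent stem cells were at 1367 to 2603 CPM, while those of fibroblasts, primitive endoderm, trophectoderm, macrophages and erythroid cells each summed to 27.2 CPM or less in every library, with Adgre1, Csf1r and Hba-a1 at 0 counts throughout. The 2 tbGFP-positive libraries at 6 h stood apart. They detected 17545 and 17445 genes, against a range of 18600 to 26069 over the remaining 10, and their log2 CPM values correlated at 0.789 with each other, against 0.909 to 0.964 within the other groups. Most values of single genes that rest on them are given with and without each. A fit without 1 of them leaves 1 library in that group. Its adjusted p then leaves out the spread between these 2 libraries and is no added support. All groups share their estimate of the spread, so leaving 1 of them out also changes the standard errors of other comparisons. In sorted bulk samples, fewer cells with a transcript and less of it per cell cannot be told apart.

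NRF2 is known to bind the core TGACNNNGC, so the 300 bases around the RefSeq start sites of the members (GRCm38.p6, 250 before the start and 50 from it on) were searched for it on both strands. Windows matched 5 of the 7 members, with 3 alternative starts for Txnrd1, 7 windows in all. Hmox1 and Gclc were not among them. The core was present in 4 of 7 windows, 1 each of Srxn1, Gclm, Txnrd1 (of its 3) and Prdx1, and in 12.4% of 32851 windows genome-wide. The related AP-1 sequence TGANTCA, found in 7.81% of windows, occurred in those of Srxn1 and Prdx1, at 2 places in each. The core and AP-1 letters overlap in Prdx1 at 133 bases before the start. In Srxn1 the core lies 28 bases past the start. A match describes letters in this window and not a site in use. Likewise, the lack of a match concerns only these exact letters in this window. The windows of Prdx1 and Nqo1 are shown because each gene passed the test at 24 h against 6 h, Prdx1 in positive and Nqo1 in negative cells, and that of Srxn1 because it held the core and AP-1 letters too but passed the test in 0 comparisons. Sequences run 5′ to 3′ on the gene's strand, with the core (read on the opposite strand) in capitals.
Prdx1, chr4:116685349-116685648, + strand: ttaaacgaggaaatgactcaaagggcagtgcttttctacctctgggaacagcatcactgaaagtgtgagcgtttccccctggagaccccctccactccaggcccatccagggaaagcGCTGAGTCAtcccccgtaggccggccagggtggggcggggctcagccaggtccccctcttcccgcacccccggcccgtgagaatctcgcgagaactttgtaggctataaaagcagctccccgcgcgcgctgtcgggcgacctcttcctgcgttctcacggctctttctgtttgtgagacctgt
Srxn1, chr2:152105274-152105573, + strand: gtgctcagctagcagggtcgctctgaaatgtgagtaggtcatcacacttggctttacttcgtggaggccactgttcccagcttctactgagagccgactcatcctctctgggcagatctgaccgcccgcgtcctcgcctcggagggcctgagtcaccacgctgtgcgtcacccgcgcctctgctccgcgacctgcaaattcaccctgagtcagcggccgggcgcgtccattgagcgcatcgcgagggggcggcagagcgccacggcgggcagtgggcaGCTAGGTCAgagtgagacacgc
Nqo1, chr8:107403156-107403455, - strand, no match: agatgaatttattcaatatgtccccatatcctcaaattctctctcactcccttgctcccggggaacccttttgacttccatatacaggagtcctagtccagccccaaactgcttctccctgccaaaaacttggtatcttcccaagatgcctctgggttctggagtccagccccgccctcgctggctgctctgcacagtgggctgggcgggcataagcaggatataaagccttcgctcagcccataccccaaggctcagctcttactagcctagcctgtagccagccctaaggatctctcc

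The files count reads per transcript, and a gene's count is the sum over its transcripts. Transcripts that share every base with another transcript of the annotation had counts in 21 of 35033 cases (0.0599%), against 67452 of 106503 (63.3%) for transcripts with at least 1 base of their own. Of the members' 30 transcripts, 9 had no base of their own and 0 of these had counts, while 20 of the other 21 did. Counts of 6 members came almost wholly from 1 transcript, with 99.7% of Hmox1 counts on Hmox1-201, 99.4% of Gclc counts on Gclc-201 and 99.4% of Prdx1 counts on Prdx1-204. Txnrd1 differed. Of its counts, 74.9%, 689 of 920, lay on transcripts annotated as retained introns, so its level here is mostly not that of its coding transcripts. At most 11.6% of the bases of its coding transcripts were their own, against 36.6% to 68.6% for its retained-intron ones. The share of counts is thus not a measure of how much Txnrd1 RNA retained introns. Exons of Gclm share 296 bases with the antisense gene Gm17494 and 244 bases with the pseudogene Gm6061, and the counting rule for such bases is not given in the sources used here. Levels are compared between libraries and not between genes.

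**Figure D1:**
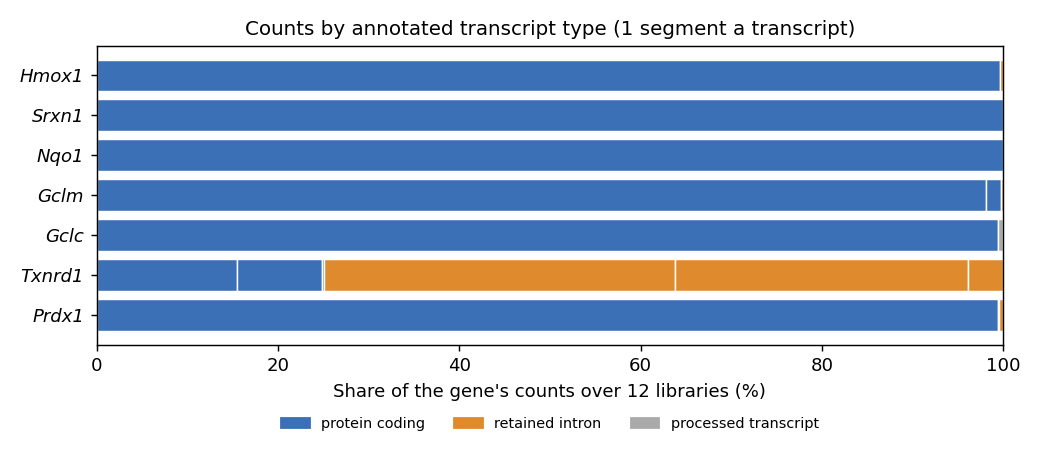
Percent of each gene's counts, summed over 12 libraries, that fell on each annotated type of transcript. Protein-coding transcripts hold nearly all counts of 6 genes, while retained-intron transcripts hold 74.9% of those of Txnrd1. Coding transcripts of Txnrd1 had smaller shares of bases of their own, so this is not a share of its RNA.

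Hmox1 encodes heme oxygenase 1, which breaks heme down to biliverdin, iron and carbon monoxide. It lies at chr8:75093621-75100589 on the + strand of GRCm38. In tbGFP-positive cells it had 158 and 161 CPM at 0 h, 134 and 201 CPM at 6 h, and 91.4 and 92.8 CPM at 24 h. In tbGFP-negative cells it had 177 and 159 CPM at 0 h, 355 and 399 CPM at 6 h, and 57.5 and 58.5 CPM at 24 h. The negative libraries of each time did not overlap those of any other time, with 6 h highest and 24 h lowest. With 2 libraries a group, lack of overlap is frequent by chance, so here and below it only describes the libraries. The positive libraries were lowest at 24 h, and those at 0 h and 6 h overlapped.

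In tbGFP-negative cells Hmox1 averaged 377 ± 31.1 CPM at 6 h and 168 ± 12.5 CPM at 0 h (SD, n = 2 each), a log2 fold change of 1.17 ± 0.20 (SE; adjusted p = 0.00304, from the quasi-likelihood test of edgeR, Benjamini-Hochberg over 19384 genes, as for all adjusted p-values here unless another tool is named). The 24 h level was below both earlier ones, with log2 fold changes of -2.70 ± 0.20 against 6 h (adjusted p = 1.32e-06) and -1.53 ± 0.20 against 0 h (adjusted p = 0.000236). The last 2 calls held in 20 of 20 alternative fits. The rise at 6 h held in 18 of 20, and its adjusted p was 0.102 without replicate 2 of the negative cells at 0 h and 0.0761 without replicate 2 at 6 h. At 24 h Hmox1 therefore stood below its own starting level in these cells, at 58 ± 0.696 CPM (SD, n = 2).

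In tbGFP-positive cells no rise of Hmox1 at 6 h was detected. The log2 fold change from 0 h was 0.08 ± 0.19 (95% interval -0.33 to 0.49, adjusted p = 0.852), and it was 0.24 without replicate 1 and -0.33 without replicate 2 of the positive cells at 6 h. Its level at 24 h was lower than at 6 h by a log2 fold change of -0.87 ± 0.20 (adjusted p = 0.0163). That call rested on single libraries, since it was lost without replicate 2 at 6 h and without either replicate at 24 h. The change was -1.08 without replicate 1 and -0.50 without replicate 2 at 6 h. The adjusted p was 0.235 when only the 4 libraries compared were fitted. Against 0 h the 24 h change was -0.79 ± 0.20 and missed the threshold (adjusted p = 0.109), though leaving out either positive library at 6 h gave 0.00187 or 0.00203 with changes of -0.83 each.

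**Figure D2:**
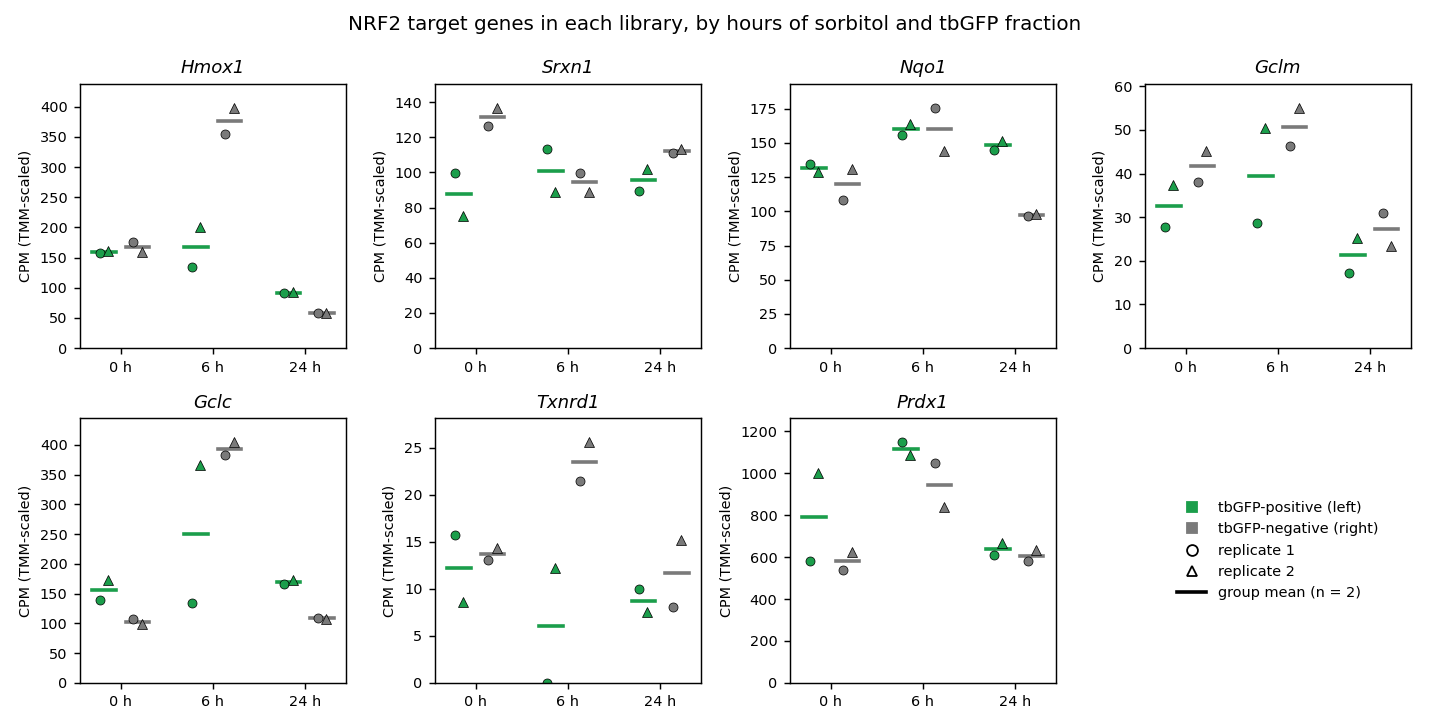
CPM per library (TMM-scaled) for each of the 7 genes at 0, 6 and 24 h of sorbitol. Each point is 1 library, tbGFP-positive left of tbGFP-negative at each time, and the bar marks the mean of 2 libraries. Hmox1 and Gclc stand highest in tbGFP-negative cells at 6 h, at 355 and 399 CPM and at 383 and 404 CPM.

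Gclc and Gclm encode the catalytic and modifier subunits of glutamate-cysteine ligase, the enzyme of the rate-limiting step of glutathione synthesis. Gclc (chr9:77754535-77794485, +) had 139 and 174 CPM at 0 h, 135 and 366 CPM at 6 h, and 166 and 173 CPM at 24 h in tbGFP-positive cells. Its tbGFP-negative libraries had 107 and 98.6 CPM at 0 h, 383 and 404 CPM at 6 h, and 109.8 and 108 CPM at 24 h. The negative cells at 6 h were above every other library, whereas 1 positive library at 6 h was close to them and the other stood at the 0 h level.

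Gclc rose in tbGFP-negative cells at 6 h, by a log2 fold change of 1.94 ± 0.32 (3.83-fold, 95% interval of the log2 value 1.26 to 2.62, adjusted p = 0.00284), the largest change of a member in that comparison. The adjusted p was 0.0517 without replicate 1 and 0.094 without replicate 2 of the negative cells at 0 h. Gclc at 24 h was back near its starting level in negative cells, at 109 ± 1.41 CPM, against 103 ± 6.06 CPM at 0 h (SD, n = 2 each). The decline after 6 h had a log2 fold change of -1.85 ± 0.32 (adjusted p = 0.00181) and held in 20 of 20 alternative fits. In tbGFP-positive cells the change at 6 h was 0.68 ± 0.31 (adjusted p = 0.189). It was 1.13 without replicate 1 at 6 h and -0.30 without replicate 2, so the value rested on which of the 2 positive libraries was kept. Between 24 h and 6 h the positive cells likewise gave -1.06 without replicate 1 at 6 h and 0.37 without replicate 2.

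Gclm (chr3:122245557-122270732, +) was counted at a lower level than Gclc in every library, which for different genes is no comparison of abundance. It had 27.8 and 37.3 CPM at 0 h, 28.7 and 50.4 CPM at 6 h, and 17.2 and 25.3 CPM at 24 h in tbGFP-positive cells. In tbGFP-negative cells it had 38.1 and 45.2 CPM at 0 h, 46.3 and 55.1 CPM at 6 h, and 31 and 23.5 CPM at 24 h. The 24 h libraries of each fraction lay below its libraries at 0 h and 6 h. Gclm passed the test in 0 comparisons, and DESeq2 called it in 0, with 2 of 11 at an unadjusted p under 0.05. The nearest were 24 h against 6 h, at -0.90 ± 0.33 in positive cells (adjusted p = 0.102) and -0.89 ± 0.33 in negative cells (adjusted p = 0.122). Without replicate 1 of the positive cells at 6 h these values were -1.19 (adjusted p = 0.00769) and -0.96 (adjusted p = 0.00798), and without replicate 2 they were -0.39 (adjusted p = 0.373) and -0.96 (adjusted p = 0.0092). At 6 h against 0 h in negative cells the 95% interval of Gclm ran from -0.42 to 0.98 and that of Gclc from 1.26 to 2.62. The difference between the genes was not tested.

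Nqo1 encodes NAD(P)H quinone dehydrogenase 1, which reduces quinones by 2 electrons and so avoids reactive semiquinones. Nqo1 (chr8:107388225-107403206, -) had 134 and 128.5 CPM at 0 h, 156 and 164 CPM at 6 h, and 145 and 152 CPM at 24 h in tbGFP-positive cells. Its tbGFP-negative libraries had 108 and 131 CPM at 0 h, 176 and 144 CPM at 6 h, and 96.7 and 98.2 CPM at 24 h. All libraries of the positive cells lay within a narrow range, and the negative cells at 24 h were below every other library.

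Nqo1 in tbGFP-negative cells averaged 97.5 ± 1.06 CPM at 24 h and 159.8 ± 22.6 CPM at 6 h (SD, n = 2 each), a log2 fold change of -0.71 ± 0.18 (adjusted p = 0.0228). The adjusted p was 0.169 without replicate 1 of the negative cells at 6 h, 0.13 and 0.117 without replicates 1 and 2 at 24 h, and 0.343, with a change of -0.31, when libraries were scaled by their totals alone. In positive cells the same comparison gave -0.11 ± 0.18 (95% interval -0.49 to 0.27, adjusted p = 0.74), and -0.10 and -0.03 without replicates 1 and 2 of the positive cells at 6 h. At 6 h against 0 h the changes were 0.28 ± 0.18 in positive cells (adjusted p = 0.353; 0.22 and 0.16 without replicates 1 and 2 at 6 h) and 0.41 ± 0.18 in negative cells (adjusted p = 0.25).

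Srxn1, Prdx1 and Txnrd1 act in the thiol-based removal of peroxides. Prdx1 is a peroxiredoxin that reduces hydrogen peroxide, Srxn1 encodes sulfiredoxin, which repairs overoxidized peroxiredoxins, and Txnrd1 encodes the cytosolic thioredoxin reductase that keeps thioredoxin reduced. Prdx1 (chr4:116685544-116700822, +) had 582 and 1002 CPM at 0 h, 1147 and 1085 CPM at 6 h, and 608 and 668 CPM at 24 h in tbGFP-positive cells. In tbGFP-negative cells it had 539.9 and 625 CPM at 0 h, 1047 and 839.9 CPM at 6 h, and 582 and 633 CPM at 24 h. In both fractions the 6 h libraries were the highest, and in both the 24 h libraries lay within or close to the range at 0 h.

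The fall of Prdx1 after 6 h passed the test in tbGFP-positive cells, at -0.81 ± 0.21 (adjusted p = 0.0281), and was -0.64 ± 0.21 in tbGFP-negative cells (adjusted p = 0.077). Without replicates 1 and 2 of the positive cells at 6 h it was -0.71 (adjusted p = 0.0315) and -0.81 (adjusted p = 0.0149) in positive cells. The call in positive cells held in 11 of 19 alternative fits. Its adjusted p lay between 0.0542 and 0.217 in the other 8, reaching 0.187 and 0.13 without replicates 1 and 2 of the positive cells at 24 h, 0.0577 without replicate 2 of the negative cells at 0 h, and 0.0542 to 0.0602 without either library of the negative cells at 6 h or at 24 h. At 6 h against 0 h Prdx1 gave 0.49 ± 0.21 in positive cells (adjusted p = 0.158; 0.36 and 0.45 without replicates 1 and 2 at 6 h) and 0.70 ± 0.21 in negative cells (adjusted p = 0.0746). Leaving out 1 library brought the rise at 6 h past the threshold in positive cells (0.85, adjusted p = 0.0378, without replicate 2 at 0 h). In negative cells it did so when a positive library at 0 h or 6 h was left out, with adjusted p-values of 0.0244 and 0.025 for the 0 h libraries and 0.028 and 0.0277 for the 6 h libraries. The same 4 fits brought the fall in negative cells to adjusted p-values of 0.00979 and 0.01 for the 0 h libraries and 0.0127 and 0.0125 for the 6 h libraries.

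Srxn1 (chr2:152105516-152111376, +) did not follow Hmox1. It had 99.6 and 75.4 CPM at 0 h, 113 and 88.7 CPM at 6 h, and 89.5 and 102 CPM at 24 h in tbGFP-positive cells. Its tbGFP-negative libraries had 127 and 137 CPM at 0 h, 99.5 and 89 CPM at 6 h, and 111 and 113 CPM at 24 h. The negative cells at 6 h, where Hmox1 and Gclc were highest, were the lowest of the 3 times for Srxn1, with a change against 0 h of -0.48 ± 0.21 (adjusted p = 0.239; -0.83, adjusted p = 0.036, with library totals alone). In positive cells its change at 6 h was -0.08 and 0.29 without replicates 1 and 2 at 6 h. Srxn1 passed the test in 0 comparisons, with 3 of 11 at an unadjusted p under 0.05. DESeq2 called it in 1, lower in positive than in negative cells at 0 h (-0.63, adjusted p = 0.0429).

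Txnrd1 (chr10:82833951-82897712, +) had 15.7 and 8.65 CPM at 0 h, 0 and 12.2 CPM at 6 h, and 9.94 and 7.51 CPM at 24 h in tbGFP-positive cells. In tbGFP-negative cells it had 13.1 and 14.3 CPM at 0 h, 21.5 and 25.6 CPM at 6 h, and 8.07 and 15.2 CPM at 24 h. Negative cells at 6 h were again the highest, and the library at 0 was replicate 1 of the positive cells at 6 h. With so few counts the standard errors were 0.83 to 0.86 in the comparisons of 2 groups, and Txnrd1 passed the test in 0 of them, as it did with DESeq2, and in 1 at an unadjusted p under 0.05. Its difference between positive and negative cells at 6 h was -1.84 ± 0.86 (adjusted p = 0.176), and the fit without replicate 2 of the positive cells, which leaves only the library at 0, passed the threshold (adjusted p = 6.04e-06). The change in negative cells from 6 h to 24 h, -1.02 ± 0.83 (adjusted p = 0.548), passed it without replicate 1 or replicate 2 of the positive cells at 6 h (-1.09 in both fits, adjusted p = 0.0371 and 0.0419).

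Over the 7 genes, most values in tbGFP-negative cells were highest at 6 h. At 6 h against 0 h, 2 of 7 were called, both higher, against 4.44% of all genes tested (3.22% higher), and 6 of 7 had a positive change, with a median log2 fold change of 0.70 against 0.05 over all genes. At 24 h against 6 h, 3 of 7 were called, all lower, against 7.91% of all genes (4.30% lower), and the median was -0.89 against 0.16. At 24 h against 0 h, 1 of 7 was called, lower, against 3.99% of all genes (1.29% lower), and the median was -0.24 against 0.23. Without both tbGFP-positive libraries at 6 h these counts were 4, 6 and 1 of 7, against 13.8%, 20.8% and 10.4% of all genes in that fit.

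In tbGFP-positive cells the counts were 0 of 7 at 6 h against 0 h, 2 of 7 at 24 h against 6 h and 0 of 7 at 24 h against 0 h. All genes tested were called at 5.90%, 8.82% and 0.552% in these comparisons, with 2.90% lower at 24 h against 6 h, the direction of both member calls. The members' median log2 fold changes were 0.28, -0.57 and -0.31, against -0.05, 0.13 and 0.09 over all genes. At 6 h 6 of 7 members had a positive change in positive cells too, but several of these signs rested on single libraries. Without replicate 2 at 6 h Hmox1, Gclm and Gclc gave -0.33, -0.26 and -0.30, and without replicate 1 Srxn1 gave -0.08. Nqo1 and Prdx1 stayed positive without either. At an unadjusted p under 0.05, 2 of 7 passed at 6 h against 0 h and 1 at 24 h against 0 h, and DESeq2 called 0 and 1. The 3 comparisons within a fraction share libraries, so their counts are not independent.

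**Figure D3:**
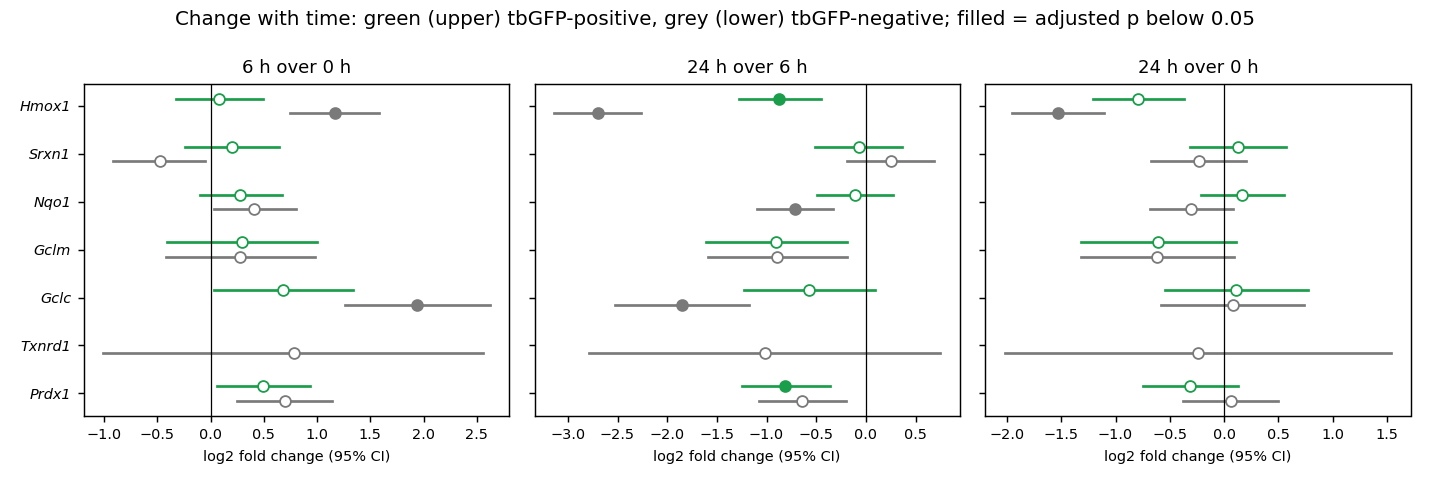
Log2 fold changes of the 7 genes between times in tbGFP-positive and tbGFP-negative cells, with 95% intervals from edgeR. Txnrd1 is drawn for tbGFP-negative cells only. In tbGFP-negative cells Hmox1 and Gclc lie at 1.17 and 1.94 at 6 h against 0 h, and Hmox1 reaches -2.70 at 24 h against 6 h.

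Of the 3 times, the gap between the sorted fractions passed the test for Hmox1 at 6 h. At 0 h positive cells averaged 159 ± 2.12 CPM and negative cells 168 ± 12.5 CPM (log2 fold change -0.07 ± 0.19, 95% interval -0.49 to 0.34, adjusted p = 0.931). At 6 h positive cells averaged 168 ± 47.9 CPM and negative cells 377 ± 31.1 CPM (-1.16 ± 0.19, adjusted p = 0.000792), and the groups did not overlap. At 24 h positive cells averaged 92.1 ± 0.957 CPM and negative cells 58 ± 0.696 CPM (0.67 ± 0.20, adjusted p = 0.0665; SD, n = 2 in each of these groups). The groups did not overlap there either, which is no test.

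The lower Hmox1 of positive cells at 6 h was -0.94 without replicate 1 and -1.52 without replicate 2 of those cells, and it kept its call in 18 of 19 alternative fits. The exception fitted only the 4 libraries compared (-1.12, adjusted p = 0.118). The higher Hmox1 of positive cells at 24 h missed the threshold, but 8 of 20 alternatives called it. Among them were DESeq2 (0.67, adjusted p = 0.0296), the fits without replicate 1 or 2 of the positive cells at 6 h (0.75 in both, adjusted p = 0.0014 and 0.00148) and those without replicate 1 or 2 of the positive cells at 0 h (0.75 in both, adjusted p = 0.045 and 0.0451). It was smaller with upper-quartile factors (0.47, adjusted p = 0.352) and with library totals alone (0.24, adjusted p = 0.589), which moved the median of all genes in this comparison to -0.25 and -0.48, against -0.05 with TMM factors.

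At 24 h Nqo1 and Gclc also had positive gaps. The gap of Gclc was of like size at 0 h (0.61 ± 0.31), while those of Hmox1 and Nqo1 were -0.07 ± 0.19 and 0.13 ± 0.18 at 0 h. Nqo1 averaged 148 ± 4.95 CPM in positive and 97.5 ± 1.06 CPM in negative cells (0.60 ± 0.18, adjusted p = 0.0704), and Gclc averaged 169 ± 4.93 CPM in positive and 109 ± 1.41 CPM in negative cells (0.64 ± 0.31, adjusted p = 0.461; SD, n = 2 each). The libraries of the fractions did not overlap for either gene, which with 2 libraries a group is frequent by chance and is no test. Nqo1 passed the threshold with any of 7 single libraries left out, those of positive cells at 0 h and 6 h, those of negative cells at 6 h and replicate 2 of negative cells at 0 h (0.67 to 0.68, adjusted p = 0.00595 to 0.0481), and Gclc without replicate 1 or 2 of positive cells at 6 h (0.71 and 0.72, adjusted p = 0.00209 and 0.0024). Both were smaller under the other scalings. With upper-quartile factors Nqo1 gave 0.41 (adjusted p = 0.353) and Gclc 0.44 (adjusted p = 0.714), and with library totals alone Nqo1 gave 0.18 (adjusted p = 0.675) and Gclc 0.21 (adjusted p = 0.773). In all, 10 of 20 alternatives called Nqo1 and 5 of 20 called Gclc.

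The other members gave no call between fractions. Gclc at 6 h was -0.65 ± 0.31 (adjusted p = 0.18). It was -0.15 without replicate 1 of the positive cells and -1.57 without replicate 2, with 1 positive library left in each fit. At 0 h the widest gaps were Gclc at 0.61 ± 0.31 (adjusted p = 0.369), Srxn1 at -0.59 ± 0.21 (adjusted p = 0.123) and Prdx1 at 0.44 ± 0.21 (adjusted p = 0.301). Without replicate 1 or 2 of the positive cells at 6 h, libraries outside this comparison, Gclc was 0.62 and Srxn1 -0.57 in both fits. Their standard errors were then 0.16 and 0.18, since all groups share their estimate of the spread. Srxn1 was called with upper-quartile factors (-0.97, adjusted p = 0.00551) and library totals alone (-1.03, adjusted p = 0.00446). The median of all genes moved there to -0.35 and -0.41, against 0.00. Prdx1 was 0.80 without replicate 1 of the positive cells at 0 h. In all, 0, 1 and 0 of 7 members were called at 0, 6 and 24 h, against 7.11%, 12.1% and 5.46% of all genes. The call at 6 h was lower, as were 5.22% of all genes. At an unadjusted p under 0.05, 2 members passed at 0 h and 2 at 24 h, and DESeq2 called 1 (Srxn1) and 2 (Hmox1 and Nqo1). Without both positive libraries at 6 h the counts were 2 and 3 of 7 at 0 h and 24 h, against 13.3% and 9.43% of all genes in that fit.

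Whether the gap itself changed with time was tested as an interaction, and 0 of 7 members passed, against 0.170% of all genes for 6 h and 0.970% for 24 h relative to 0 h. At 6 h the gap of Hmox1 moved by -1.09 ± 0.27 (95% interval -1.67 to -0.51, unadjusted p = 0.00124, adjusted p = 0.13) and that of Gclc by -1.25 ± 0.44 (adjusted p = 0.247). Without replicates 1 and 2 of the positive cells at 6 h the Hmox1 value was -0.88 and -1.46, and that of Gclc was -0.77 and -2.19. Each of these fits leaves 1 library in that group, so the spread between its libraries is not in the test. At 24 h Hmox1 gave 0.74 ± 0.28 (adjusted p = 0.597). Nqo1 gave 0.47 ± 0.25 and Gclc 0.03 ± 0.44 (95% interval -0.90 to 0.96) at 24 h, and neither passed. A change of the gap between 6 h and 24 h was not tested. At an unadjusted p under 0.05, 3 members passed at 6 h (Hmox1, Gclc and Srxn1) and 1 at 24 h (Hmox1), and DESeq2 called 0 at both.

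**Figure D4:**
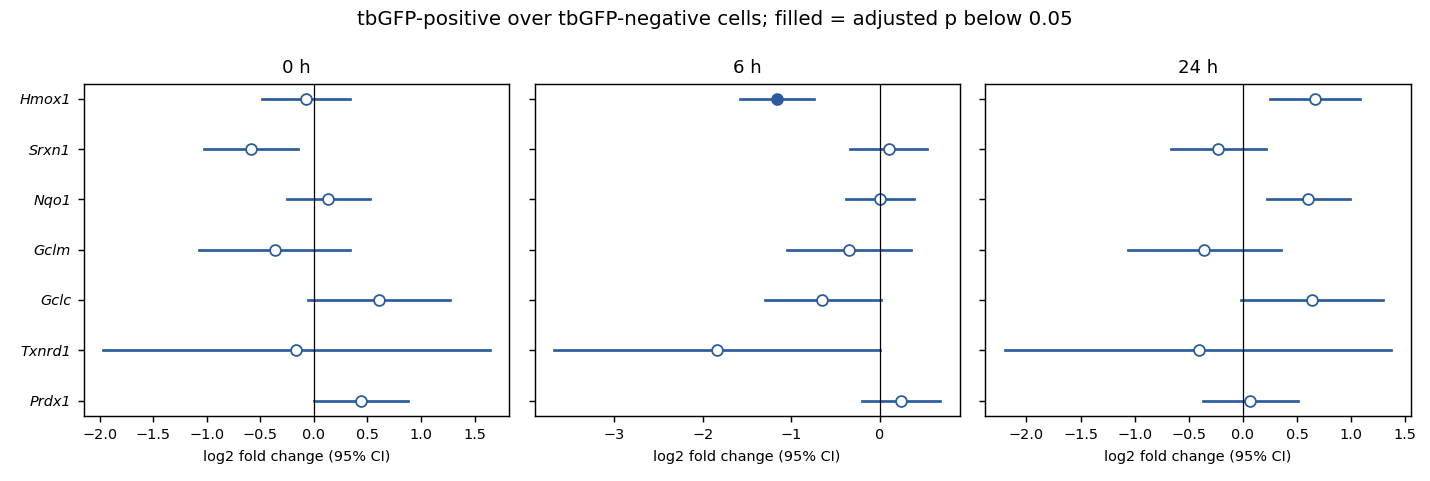
Log2 fold change of tbGFP-positive over tbGFP-negative cells for each of the 7 genes at 0, 6 and 24 h, with 95% intervals from edgeR. Hmox1 lies at -0.07, -1.16 and 0.67 at the 3 times.

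The regulators of the pathway were read from a list of 9 genes, all of which were tested. Nfe2l2, which encodes NRF2 itself, had 332 and 332 CPM at 0 h, 252 and 339 CPM at 6 h, and 206 and 221 CPM at 24 h in tbGFP-positive cells. Its tbGFP-negative libraries had 241 and 242 CPM at 0 h, 389 and 394 CPM at 6 h, and 139 and 128 CPM at 24 h. The negative cells thus showed the order of Hmox1, with 6 h highest and 24 h lowest and no overlap between times.

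Nfe2l2 rose in tbGFP-negative cells at 6 h against 0 h (0.69 ± 0.17, adjusted p = 0.0278), and was lower at 24 h than at 6 h (-1.55 ± 0.17, adjusted p = 5.81e-05) and than at 0 h (-0.86 ± 0.17, adjusted p = 0.00743). The rise held in 10 of 20 alternative fits, with adjusted p-values of 0.203 and 0.294 without replicates 1 and 2 of the negative cells at 0 h, 0.242 and 0.278 without those at 6 h, and 0.0756 and 0.0752 without those at 24 h. It was 0.0597 without replicate 2 of the positive cells at 24 h, 0.0785 without a filter on low counts, 0.0679 with upper-quartile factors and 0.311, with a change of 0.35, with library totals alone. The fall after 6 h held in 20 of 20, and that from 0 h to 24 h in 18 of 20 (adjusted p = 0.0661 without replicate 1 at 0 h and 0.0663 without replicate 2 at 24 h). In tbGFP-positive cells the change at 6 h was -0.17 ± 0.17 (95% interval -0.52 to 0.19, adjusted p = 0.577), and it was -0.06 and -0.48 (adjusted p = 0.821 and 0.0551) without replicates 1 and 2 at 6 h. Nfe2l2 in positive cells at 24 h gave -0.63 ± 0.17 against 0 h (adjusted p = 0.138) and -0.47 ± 0.17 against 6 h (adjusted p = 0.0923). The second was -0.62 and -0.20 without replicates 1 and 2 at 6 h. Of the alternatives, 5 of 20 called the first and 2 of 19 the second, DESeq2 among them (-0.67, adjusted p = 0.0103, and -0.51, adjusted p = 0.0291). Between fractions Nfe2l2 gave 0.46 ± 0.17 at 0 h (adjusted p = 0.148) and -0.40 ± 0.17 at 6 h (adjusted p = 0.129; -0.24 and -0.66, adjusted p = 0.31 and 0.00731, without replicates 1 and 2 of the positive cells at 6 h). At 24 h Nfe2l2 was higher in positive than in negative cells (0.68 ± 0.17, adjusted p = 0.0228), a call that was lost without any of the 4 libraries compared (adjusted p = 0.0748 to 0.167) and under both other scalings (0.48, adjusted p = 0.217, with upper-quartile factors and 0.25, adjusted p = 0.497, with library totals alone).

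Bach1, which encodes the repressor that competes with NRF2 at Hmox1, had 73.4 and 61.3 CPM at 0 h, 81.2 and 94.2 CPM at 6 h, and 65.7 and 60.8 CPM at 24 h in tbGFP-positive cells. In tbGFP-negative cells it had 28.8 and 35.1 CPM at 0 h, 94.3 and 80.7 CPM at 6 h, and 49.1 and 37.3 CPM at 24 h. It rose with Hmox1 in negative cells at 6 h (1.44 ± 0.24, adjusted p = 0.00296) and was lower at 24 h than at 6 h (-1.02 ± 0.23, adjusted p = 0.0133). The rise was lost without replicate 1 of the negative cells at 0 h (adjusted p = 0.064) or at 6 h (0.0696), and the fall without replicate 1 at 6 h (0.111) or replicate 2 at 24 h (0.155) and with library totals alone (-0.61, adjusted p = 0.124). Bach1 was higher in positive than in negative cells at 0 h (1.07 ± 0.24, adjusted p = 0.00927), when Hmox1 did not differ beyond its spread. That gap missed the threshold without replicate 1 (adjusted p = 0.137) or 2 (0.0516) of the negative cells or replicate 1 of the positive cells (0.0606) at 0 h, and with upper-quartile factors (0.107) or library totals alone (0.127).

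Mafg, a small MAF partner of both factors, had 152 and 112 CPM at 0 h, 71.8 and 232 CPM at 6 h, and 131 and 129 CPM at 24 h in tbGFP-positive cells. Its tbGFP-negative libraries had 157 and 152 CPM at 0 h, 281 and 384 CPM at 6 h, and 111 and 122 CPM at 24 h. For positive over negative cells at 6 h Mafg gave -1.12 (-0.56 and -2.24 without replicates 1 and 2 of the positive cells). Mafg missed the threshold there, though 6 of 19 alternative fits called it. It was lower in negative cells at 24 h than at 6 h (-1.51 ± 0.36, adjusted p = 0.0176; 0.156 without replicate 2 at 6 h, 0.143 and 0.103 without replicates 1 and 2 at 24 h, 0.0617 with library totals alone), while its change at 6 h against 0 h was 1.11 ± 0.36 (adjusted p = 0.108; called in 5 of 20 alternative fits). In positive cells its 2 libraries at 6 h lay on either side of the 0 h levels, and its change there against 0 h was 0.72 (adjusted p = 0.0185) without replicate 1 and -0.96 (adjusted p = 0.00655) without replicate 2. Maff, another small MAF gene, had 0 counts in both positive libraries at 6 h, against 36 in the negative ones (adjusted p = 0.0456, called in 7 of 19 alternative fits). With the positive libraries set to 3 counts in all it would be at least 11.4-fold lower. That bound covers counting error only, and these sparse libraries held 0 and 86 counts of Txnrd1.

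The remaining regulators passed the edgeR test in 0 comparisons. Cul3, the ubiquitin ligase scaffold on which KEAP1 acts, had 9.59 to 33 CPM over the 12 libraries, and its log2 fold changes between 2 groups ran from -0.82 to 0.16 (adjusted p = 0.245 to 0.982). Keap1 had 0 to 8.94 CPM, Sqstm1, whose product binds KEAP1, 0.494 to 12.5 CPM, Nfe2l1, a relative of Nfe2l2, 0.747 to 2.84 CPM, and Mafk 0 to 3.95 CPM. These 4 genes had 72 to 393 counts each over all libraries. Of the 9 regulators, 2 were called higher at 6 h against 0 h in negative cells, 3 lower at 24 h against 6 h and 1 lower at 24 h against 0 h, where 4.44%, 7.91% and 3.99% of all genes were called. In positive cells 0 of 9 were called between any 2 times, while 2, 2 and 1 had an unadjusted p under 0.05 at 6 h against 0 h, 24 h against 6 h and 24 h against 0 h and DESeq2 called 1 in each. Between positive and negative cells 1 was higher at 0 h, 1 lower at 6 h and 1 higher at 24 h, where 7.11%, 12.1% and 5.46% of all genes were called. Scaling moved these 3 counts, to 0, 4 and 0 under upper-quartile factors, and library totals alone gave 0, 2 and 0.

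**Figure D5:**
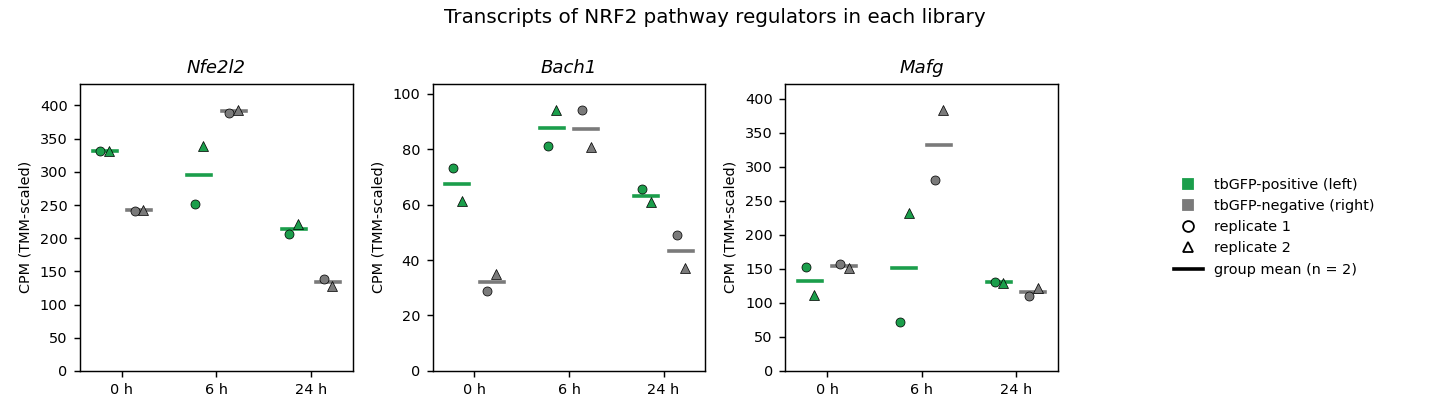
CPM per library (TMM-scaled) of regulators of the pathway at 0, 6 and 24 h. Each point is 1 library, tbGFP-positive left of tbGFP-negative at each time, and the bar marks the mean of 2. Nfe2l2 in tbGFP-negative cells is at 389 and 394 CPM at 6 h and at 139 and 128 CPM at 24 h.

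Across the 12 libraries Hmox1 ran with Nfe2l2 at a Pearson correlation of 0.92 (log2 CPM), with Mafg at 0.75, Cul3 at 0.49 and Bach1 at 0.46. With the remaining regulators, each at a mean of 4.94 CPM or less, Hmox1 gave 0.38 (Sqstm1), 0.24 (Maff), 0.22 (Mafk), -0.03 (Keap1) and -0.50 (Nfe2l1). Among the members its correlation was 0.77 with Gclm, 0.73 with Gclc, 0.63 with Nqo1, 0.51 with Prdx1, 0.26 with Txnrd1 and -0.26 with Srxn1. Among the 5 genes most like Hmox1 of 4872 with a mean of at least 20 CPM were Smc1a (0.972), Gm9800 (0.964), 2810006K23Rik (0.959) and Ezr (0.955). These are descriptions over 12 libraries that form 6 groups and share their scaling. As an example of the pattern, Smc1a, a cohesin subunit gene, had 169.5 and 189 CPM in negative cells at 0 h, 232 and 243 CPM at 6 h, and 132 and 123 CPM at 24 h. No member and no other gene of the 4 pathway lists was among the 5.

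A list of 24 other genes reported as NRF2 targets held 17 that were tested. Gstm1, Mgst1, Me1, Idh1, Cbr1, Ephx1 and Osgin1 had too few counts. In negative cells 1 of 17 was called at 6 h against 0 h (Txn1, higher), with a median of -0.05, 3 at 24 h against 6 h (Txn1, Gsr and Gsta4, all lower), with a median of -0.44, and 3 at 24 h against 0 h (Gsta4, Cbr3 and Slc7a11, all lower), with a median of -0.52. All genes were called at 4.44%, 7.91% and 3.99% in these comparisons, with medians of 0.05, 0.16 and 0.23. In positive cells 0, 3 and 0 of 17 were called at 6 h against 0 h, 24 h against 6 h and 24 h against 0 h, with Gsta4 and Cbr3 lower and Pgd higher, against 5.90%, 8.82% and 0.552% of all genes. DESeq2 called 1, 8 and 2 in these, and 6, 10 and 3 had an unadjusted p under 0.05. Between positive and negative cells 0, 3 and 0 of 17 were called at 0, 6 and 24 h, those at 6 h being Gsta4, Pgd and Blvrb, all lower, against 7.11%, 12.1% and 5.46% of all genes. At 0 h and 24 h DESeq2 called 0, and 4 and 1 had an unadjusted p under 0.05. At 0 h 4 of 17 were called with upper-quartile factors and 4 with library totals alone, and at 6 h 5 were called with upper-quartile factors.

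Gsta4, a glutathione transferase that detoxifies lipid aldehydes, was the other target most like Hmox1 in its calls. It had 456 and 459.8 CPM at 0 h, 489.5 and 626 CPM at 6 h, and 322 and 330.1 CPM at 24 h in positive cells. In negative cells it had 539 and 590.1 CPM at 0 h, 869.9 and 795 CPM at 6 h, and 349 and 315 CPM at 24 h. It was lower at 24 h than at 6 h in positive (-0.77 ± 0.15, adjusted p = 0.00866) and in negative cells (-1.33 ± 0.16, adjusted p = 9.43e-05, called in 20 of 20 alternative fits), and lower in positive than in negative cells at 6 h (-0.58 ± 0.15, adjusted p = 0.0237). The call in positive cells was lost without replicate 1 (adjusted p = 0.0863) or 2 (0.0698) at 24 h, and the gap at 6 h without replicate 1 of the positive (-0.45, adjusted p = 0.0504) or of the negative cells (0.103). Without replicates 1 and 2 at 6 h the change in positive cells was -0.89 and -0.55 (adjusted p = 0.000398 and 0.0151), and without replicate 2 of the positive cells the gap was -0.79 (adjusted p = 0.00108).

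Txn1, which encodes thioredoxin, the substrate of Txnrd1, had 963 and 964 CPM in negative cells at 6 h, against 598 and 624 CPM at 0 h (0.66 ± 0.13, adjusted p = 0.0087). Its fall to 24 h was -0.56 ± 0.13 (adjusted p = 0.0135). Both changes were lost when any 1 of the 4 libraries compared was left out, with adjusted p-values of 0.115 to 0.139 for the rise and 0.0558 to 0.121 for the fall, and with library totals alone (0.31, adjusted p = 0.24, and -0.16, adjusted p = 0.509). Gsr, glutathione reductase, was lower at 24 h than at 6 h in negative cells (-0.69 ± 0.18, adjusted p = 0.0314; 0.0556 without replicate 1 of the negative cells at 0 h 0.07 to 0.195 without any of the 4 libraries compared, and 0.373, with a change of -0.29, with library totals alone). Pgd, an NADPH-producing enzyme of the pentose phosphate pathway, had 123 and 131 CPM in positive and 241 and 248 CPM in negative cells at 6 h (-0.94 ± 0.20, adjusted p = 0.00518), a gap called in 18 of 19 alternatives and lost when the 4 libraries were fitted alone (adjusted p = 0.0822). Without replicates 1 and 2 of the positive cells at 6 h it was -0.93 and -1.01 (adjusted p = 0.00388 and 0.00196). Its rise in positive cells at 24 h against 6 h was 0.66 ± 0.20 (adjusted p = 0.0478; 0.67 and 0.75, adjusted p = 0.0325 and 0.0186, without replicates 1 and 2 at 6 h; called in 9 of 19 alternative fits).

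Slc7a11, the cystine importer, and Cbr3, a carbonyl reductase, were lower in negative cells at 24 h than at 0 h, at -2.54 ± 0.67 (adjusted p = 0.0462; called in 9 of 20 alternative fits) and -1.84 ± 0.39 (adjusted p = 0.0129; 0.0671 to 0.124 without any of the 4 libraries compared). Cbr3 was also lower in positive cells at 24 h than at 6 h (-1.58 ± 0.39, adjusted p = 0.0244; 0.183 and 0.0925 without replicates 1 and 2 at 24 h). Without replicates 1 and 2 at 6 h that change was -1.68 and -1.36 (adjusted p = 0.0034 and 0.0182). Blvrb, which encodes biliverdin reductase B, had 0 counts in the positive libraries at 6 h, against 34 in the negative ones. That is at least 10.9-fold lower by a floor of 3 counts over the positive libraries, which covers counting error only (adjusted p = 0.0418). Blvrb was called in 10 of 19 alternative fits, and the call was lost without replicate 2 of the positive cells at 6 h.

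Of 17 further antioxidant enzymes, all tested and none in the lists above, few moved with Hmox1. Sesn2, a stress-induced sestrin, had 1748 and 2226 CPM in negative cells at 6 h, against 529 and 492 CPM at 0 h (1.96 ± 0.42, adjusted p = 0.0213). It was lower at 24 h than at 6 h (-2.49 ± 0.43, adjusted p = 0.00393). The rise was lost without any of the 4 libraries compared (adjusted p = 0.0705 to 0.165), and both calls were lost without a filter on low counts (adjusted p = 0.279 and 0.0837). In positive cells at 6 h Sesn2 had 465 CPM in replicate 1 and 1537 CPM in replicate 2, a split in the direction of that of Gclc. Prdx3, the mitochondrial peroxiredoxin, was lower in positive than in negative cells at 6 h, with 91.7 and 82.8 CPM in positive and 188 and 178 CPM in negative cells (-1.07 ± 0.18, adjusted p = 0.000769), and the gap was -1.18 and -1.02 (adjusted p = 0.000197 and 0.000915) without replicates 1 and 2 of the positive cells. At 0 h its gap was -0.68 ± 0.18 (adjusted p = 0.0268; 0.334 without replicate 1 of the negative cells and 0.121 and 0.0901 without replicates 1 and 2 of the positive cells at 0 h, and 0.0523 to 0.0604 without replicate 2 of the positive or either library of the negative cells at 24 h). Gss, glutathione synthetase, had 0 counts in the positive libraries at 6 h, against 28 at 0 h (adjusted p = 0.0353). By a floor of 3 counts over the 6 h libraries, which covers counting error only, that is at least 10.4-fold lower. It had 24 counts at 24 h, against 0 at 6 h, at least 6.78-fold higher by the same floor (adjusted p = 0.0405), and each call held in 7 of 19 alternative fits. Without replicates 1 and 2 at 6 h the adjusted p-values were 0.0185 and 0.0458 against 0 h and 0.0322 and 0.0671 for 24 h against 6 h.

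The list gave 1 of 17 higher at 6 h against 0 h, 1 lower at 24 h against 6 h and 0 at 24 h against 0 h in negative cells, with medians of 0.00, 0.45 and 0.18. All genes were called at 4.44%, 7.91% and 3.99%, with medians of 0.05, 0.16 and 0.23, so 1 of 17 is near the share of all genes. In positive cells it gave 1 lower, 1 higher and 0 in the same comparisons, against 5.90%, 8.82% and 0.552% of all genes. Between positive and negative cells it gave 1, 1 and 0 lower at 0, 6 and 24 h, against 7.11%, 12.1% and 5.46%, while upper-quartile factors gave 1, 2 and 1 and library totals alone 2, 1 and 1. In the comparisons with 0 calls, DESeq2 called 1 at 24 h against 0 h in negative cells and 0 in the others, and 2, 1 and 2 had an unadjusted p under 0.05 (24 h against 0 h in negative and positive cells, and between fractions at 24 h). With 2-cell-like markers at 22704 to 38996 CPM in all positive libraries, the fractions differed in that program at every time, and in negative libraries those markers stood at 11.6 to 25.9 CPM at 0 h, 36.8 to 50.7 CPM at 6 h and 531 to 588 CPM at 24 h. Its part in the member results was not tested.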

How the data were processed

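RNA of sorted E14 cells was measured in 12 libraries, 6 groups of 2. Per the labels' protocols, 50 000 cells were sorted per sample and a stranded total RNA kit was used. Per the submitters' processing notes, the tools were FastQC, HISAT2, featureCounts and DESeq2, of versions not given, and the genome build was mm10. Each deposited file lists counts of Ensembl transcripts, per the file headers, with no normalization by the authors. The strand setting and the rule for reads shared by transcripts are not given in the sources used here. The design assumed counts, and the files hold them per transcript.

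Counts were summed per gene with GENCODE M21 (GRCm38), which matched 141536 of 142446 transcripts. The 910 others held 0.0606% to 0.0903% of counts and were left out. In all, 0 columns were without a sample. The 19384 genes that reached 10 counts in 2 or more libraries were fitted with edgeR 4.0.16 (TMM, robust quasi-likelihood F test, 1 mean per group, all 12 libraries, common dispersion 0.208). P-values were adjusted over all genes tested in each comparison, at a threshold of 0.05. CPM values were scaled by TMM factors. The SE is the absolute log2 fold change divided by the square root of F. Correlations used log2 CPM with a prior count of 2. The script was tested on simulated counts.

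Alternatives were DESeq2 1.42.0, other scalings, no filter, the most counted transcript per gene, the replicate block, only the libraries compared, and leaving out libraries. All members and regulators are named; in the other 2 lists, up to 8 genes called at least once. Members, lists and the naming rule were chosen with earlier results of these data known. One gene of those that the rule on likeness to Hmox1 names is not reported here. Bounds from 3 counts cover counting error only, and reads carried no molecular identifiers in the labels.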

Additional observations from a re-analysis of the deposited data

How the results depend on the processing

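In counts simulated for 6 h against 0 h in negative cells (17811 genes), the fit missed many changes of moderate size. It called 13% of the changes set at 2-fold and 51% of those set at 4-fold. The changed genes were drawn from all but the lowest levels, with the spread typical of their level. These shares are therefore not those for the members, whose standard errors in that comparison ran from 0.18 (Nqo1) to 0.84 (Txnrd1). The falls of Hmox1 and Gclc in negative cells from 6 h to 24 h and of Hmox1 from 0 h to 24 h were called in all 20 alternatives, and none of the member calls reversed its sign in any. All other member calls were lost in at least 1. Scaling moved the median of all genes. It was -0.05, -0.25 and -0.48 for positive over negative cells at 24 h, and 0.16, 0.03 and 0.56 for 24 h against 6 h in negative cells, with TMM factors, upper-quartile factors and library totals in that order. Causes of the changes below were not tested. Counts of called members that moved by over 1.5 times are given by setting. Smaller moves were to 4 at 24 h against 6 h in negative cells with upper-quartile factors, to 3 at 6 h against 0 h and 2 at 24 h against 6 h in negative cells with library totals alone, and to 3 and 4 in the same 2 comparisons without a filter on low counts. All genes were called at 8.80%, 4.69%, 8.77%, 2.98% and 4.91% in these, in that order.

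With upper-quartile factors, the counts of called members moved to 1 for positive over negative at 0 h, against 8.77% of all genes. The sign turned there, with log2 fold changes of -0.25 for Nqo1 in positive over negative at 0 h, -0.25 for Srxn1, -0.33 for Nqo1 and -0.09 for Prdx1 in positive over negative at 6 h, -0.12 for Prdx1 in positive over negative at 24 h and -0.10 for Gclc and -0.12 for Prdx1 in 24 h against 0 h in negative cells. With library totals alone, the counts of called members moved to 1 for positive over negative at 0 h, against 9.75% of all genes. The sign turned there, with log2 fold changes of -0.31 for Nqo1 in positive over negative at 0 h, -0.02 for Nqo1 in positive over negative at 6 h, -0.35 for Prdx1 in positive over negative at 24 h and -0.07 for Gclm in 6 h against 0 h in negative cells. With DESeq2, the counts of called members moved to 1 for positive over negative at 0 h, 2 for positive over negative at 24 h and 1 for 24 h against 0 h in positive cells. All genes were called at 8.90%, 6.83% and 1.90% by DESeq2 in that order. The sign turned there, with a log2 fold change of -0.02 for Prdx1 in 24 h against 0 h in negative cells. Without a filter on low counts, the counts of called members moved to 3 for positive over negative at 6 h, 2 for positive over negative at 24 h, 1 for 24 h against 0 h in positive cells and 2 for the interaction at 6 h against 0 h. All genes were called at 7.01%, 3.29%, 0.948% and 0.725% in that fit, in that order. The sign turned there, with log2 fold changes of -0.07 for Nqo1 in positive over negative at 6 h, -0.05 for Gclc and -0.07 for Prdx1 in 24 h against 0 h in negative cells, -0.07 for Hmox1 in 6 h against 0 h in positive cells and 0.03 for Srxn1 in 24 h against 6 h in positive cells. With the most counted transcript per gene, the sign turned, with a log2 fold change of -0.01 for Nqo1 in positive over negative at 6 h. With the replicate block, the sign turned, with a log2 fold change of -0.00 for Nqo1 in positive over negative at 6 h. Without both positive libraries at 6 h, the counts of called members moved to 2 for positive over negative at 0 h, 3 for positive over negative at 24 h, 4 for 6 h against 0 h in negative cells, 6 for 24 h against 6 h in negative cells and 1 for 24 h against 0 h in positive cells. All genes were called at 13.3%, 9.43%, 13.8%, 20.8% and 4.94% in that fit, in that order. The sign turned there, with log2 fold changes of -0.03 for Gclc and -0.05 for Prdx1 in 24 h against 0 h in negative cells. With only the 4 libraries of each comparison, the counts of called members moved to 0 for positive over negative at 6 h, 3 for positive over negative at 24 h, 4 for 6 h against 0 h in negative cells, 4 for 24 h against 0 h in negative cells, 6 for 24 h against 6 h in negative cells and 0 for 24 h against 6 h in positive cells. All genes were called at 4.29%, 13.7%, 29.4%, 20.8%, 40.2% and 0.00% in those fits, in that order. The sign turned there, with log2 fold changes of -0.06 for Gclc and -0.09 for Prdx1 in 24 h against 0 h in negative cells.

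Leaving out each library in turn moved the counts of called members in most comparisons. The share of all genes called moved as well. Each such fit left 1 library in a group, so its counts are not given. Signs turned among these fits, where log2 fold changes spanned the following ranges. For positive over negative at 0 h, the range was -0.15 to 0.00 for Hmox1 and -0.65 to 0.21 for Txnrd1. For positive over negative at 6 h, the range was -0.13 to 0.24 for Srxn1 and -0.19 to 0.09 for Nqo1. For positive over negative at 24 h, the range was -0.73 to 0.19 for Txnrd1. For 24 h against 0 h in negative cells, the range was -0.11 to 0.14 for Gclc, -0.87 to 0.04 for Txnrd1 and -0.11 to 0.06 for Prdx1. For 6 h against 0 h in positive cells, the range was -0.33 to 0.24 for Hmox1, -0.08 to 0.33 for Srxn1, -0.26 to 0.54 for Gclm, -0.30 to 1.13 for Gclc and -0.96 to 0.72 for Mafg. For 24 h against 0 h in positive cells, the range was -0.10 to 0.30 for Srxn1, -0.08 to 0.24 for Gclc and -0.70 to 0.09 for Prdx1. For 24 h against 6 h in positive cells, the range was -0.21 to 0.16 for Srxn1, -1.06 to 0.37 for Gclc and -0.78 to 0.90 for Mafg. For the interaction at 24 h against 0 h, the range was -0.06 to 0.26 for Gclc. Without replicate 2 of the positive cells at 6 h, Mafg was called at -0.96 for 6 h against 0 h (adjusted p = 0.00655) and at 0.90 for 24 h against 6 h (adjusted p = 0.0083) in positive cells. DESeq2 called 8 of 17 other targets lower or higher at 24 h against 6 h in positive cells, against 3 with edgeR, and 3 of 9 regulators between fractions at 6 h, against 1. With library totals alone the calls in negative cells at 6 h against 0 h, 24 h against 6 h and 24 h against 0 h were 0, 1 and 2 of the other targets and 1, 1 and 1 of the regulators.

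The labels do not say what replicate numbers mark, and same-numbered libraries deviated from their group means with correlations of -0.214 to 0.377 over the 15 pairs of groups, so the numbers are not taken to pair the samples. With the replicate block the counts of called members were the same in all 11 comparisons, for example 2 at 6 h against 0 h in negative cells. Among the other listed genes the block ended the calls of Maff and Blvrb at 6 h, Slc7a11 at 24 h, Pgd and Gss (adjusted p = 0.0578 to 0.0716). The block added a call of Mafg, lower in positive than in negative cells at 6 h (adjusted p = 0.0486).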
